A study of Mus musculus with 7 samples.

Results

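The transcripts described here are those of 9 genes named for B cells and antigen presentation, read in CD8+ T cells that had been exposed to small extracellular vesicles (sEVs). They were taken by gene symbol from a count table of 55367 genes, as a list drawn up with earlier results of these data known. 5 belong to the B-cell receptor and its co-receptors (Ighm, Igkc, Cd79a, Cd79b and Ms4a1) and 4 to the major histocompatibility complex (MHC) class II complex (Cd74, H2-Aa, H2-Ab1 and H2-Eb1).

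The study asked how sEVs taken from a leukemic spleen change CD8+ T cells. CD8+ T cells from the spleen of the Foxp3 YFP/cre mouse strain, in which the Foxp3 locus drives a YFP-Cre fusion in regulatory T cells, were kept with 100 µg/ml of sEVs for 48 h. The HCME-sEV group (n = 4 libraries, control EVs in the labels) received sEVs from healthy spleens, and the LME-sEV group (n = 3, leukemia EVs) received sEVs from spleens of Eμ-TCL1 mice, whose transgene is driven in B cells and gives rise to a B-cell leukemia. A legend of the study gives the group sizes the other way round. The labels were followed here, and an exchange of labels would reverse every direction below. The labels state a sort and 1 amount of sEVs for all libraries, whereas the general methods of the study describe a negative-selection kit and amounts set by what each kind of spleen holds, so whether both groups received equal amounts is uncertain. Those methods also place CD8+ T cells in wells coated with anti-CD3, with anti-CD28 and IL2 in the medium. No library of untreated cells is part of the comparison, all donors of the T cells carried the same strain label, and ages were not among the labels used here. The labels do not say whether libraries came from separate animals, so p-values measure the spread between these libraries, which may be technical.

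As background, a B cell displays a receptor made of heavy and light immunoglobulin chains, signals through the CD79A and CD79B pair, and carries CD20, the product of Ms4a1. MHC class II molecules are pairs of an α and a β chain that present peptides to CD4+ T cells, and the invariant chain, encoded by Cd74, escorts them until a peptide is loaded. B cells, dendritic cells and macrophages can make class II, under the transactivator CIITA and the RFX complex, which act on promoters that also carry a Y box bound by NF-Y. Mouse T cells are generally regarded as making little class II of their own.

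Promoter sequence is shown for the class II genes because H2-Aa and H2-Eb1, together with H2-Oa of the same pathway, carry a Y box before the RefSeq start. The reference table (RefSeq, GRCm38.p6) held promoters for 3 of the 9 members, Cd79a, H2-Aa and H2-Eb1. The Y box was searched as CCAAT or, on the other strand, ATTGG in the 250 bases before the start, and 33.8% of 32851 such windows held it. The stretches below run 5′ to 3′ on the strand of the gene over 75 bases and end with the Y box in capitals, from chr17:34287867-34287941 (minus strand), chr17:34305738-34305812 (plus strand) and chr17:34092266-34092340 (plus strand).
H2-Aa: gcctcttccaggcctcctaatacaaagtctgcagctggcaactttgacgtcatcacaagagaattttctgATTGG
H2-Eb1: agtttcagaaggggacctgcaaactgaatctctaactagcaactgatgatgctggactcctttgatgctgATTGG
H2-Oa: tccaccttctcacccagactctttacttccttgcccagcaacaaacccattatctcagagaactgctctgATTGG
The first base of the Y box lay 48 bases before the RefSeq start of H2-Aa, 59 before that of H2-Eb1 and 43 before that of H2-Oa, and the window of H2-Eb1 held 2 matches. By the GENCODE vM21 start of H2-Oa, at position 34092340, its Y box ends at the start itself. Rfx5 of the same pathway held 2 matches, 113 and 54 bases before its start, and is not printed. The window of Cd79a held none. The octamer of immunoglobulin promoters, ATGCAAAT or ATTTGCAT on the other strand, was in 1.60% of all windows and in none of these 5. A match describes letters and not a site in use.

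The libraries held 3689831 to 5030522 counts after removal of duplicate molecules, so that 3 counts, taken as the limit that a count of 0 allows, correspond to 0.580 to 0.804 CPM (counts scaled to a common library total). CPM values here include edgeR's TMM factors, which lay between 0.965 and 1.03. Each count is a 3′ end, so gene length does not enter. Across the 12623 tested genes 473 were higher and 658 lower in LME-sEV cells at a false discovery rate (FDR) under 0.05, and scaling by library size alone gave 614 higher and 465 lower. The median log2 fold change over all genes was 0.0095 with TMM and 0.0552 with library size alone.

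The 9 members were very unequal in level. Together they held 9539 of 29536867 counts, of which Ighm took 84.8% and the 4 class II members 11.6%. In HCME-sEV cells the mean level fell in the order Ighm, Cd74, H2-Ab1, H2-Aa, Igkc, Cd79b, H2-Eb1, Ms4a1 and Cd79a. The ranges of H2-Aa, Igkc, Cd79b and H2-Eb1, neighbours in that order, overlapped, so their order is within the spread of the libraries. In LME-sEV cells Igkc stood ahead of H2-Aa, with ranges that overlapped, and H2-Eb1 (4.71 to 6.43 CPM) ahead of Cd79b (3.48 to 4.48 CPM), with ranges that did not. Ighm was the 772nd most abundant of all genes by mean CPM in HCME-sEV cells and the 500th in LME-sEV cells, whereas Cd74, the next member, was 7516th and 6621st.

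**Figure D1:**
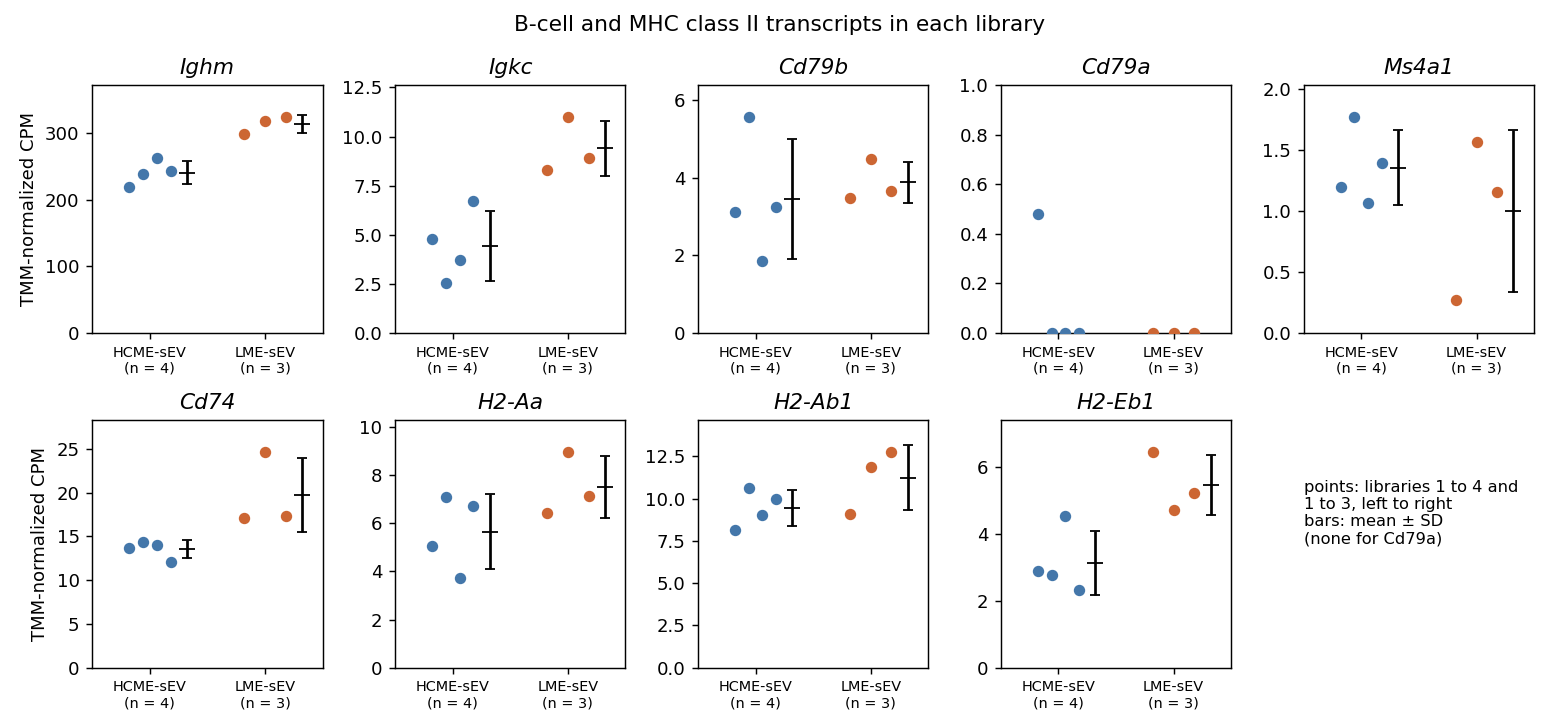
TMM-normalized CPM of each member in the 4 HCME-sEV (blue) and 3 LME-sEV (orange) libraries, on linear axes from 0 that differ between panels, with the mean ± SD beside the points. Ighm, Igkc, Cd74 and H2-Eb1 show groups that do not overlap, and Cd79a has counts in 1 library.

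8 of the 9 members passed the filter on low counts (an average of 5 or more a library), and Cd79a did not. Of these 8, 3 were higher in LME-sEV cells in edgeR's quasi-likelihood test (Ighm, Igkc and Cd74) and 0 were lower, where 3.75% of all tested genes were higher, 5.21% lower and 8.96% changed in either direction. At an unadjusted p under 0.05 there were also 0 lower members, and by DESeq2 0 of the 7 to which it gave an adjusted p. Igkc alone, 1 of the 8, also passed a log2 fold change beyond 1, as did 1.28% of all tested genes. The log2 fold change was positive in 7 of the 8, against 51.5% of all tested genes, with a median of 0.40. The groups did not overlap, with every LME-sEV library above every HCME-sEV library, in 4 of the 8 (Ighm, Igkc, Cd74 and H2-Eb1), against 9.49% of all tested genes. The members were listed with earlier results of these data known, and these shares describe the list.

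Ighm, the constant region of the immunoglobulin µ heavy chain (GRCm38 chromosome 12, 113418558 to 113422730, minus strand), had 913, 943, 987 and 1044 counts in HCME-sEV libraries 1 to 4 and 1111, 1418 and 1674 in LME-sEV libraries 1 to 3. In CPM these were 219, 238, 262 and 242 against 298, 318 and 323. Every LME-sEV library was above the highest HCME-sEV library. The means were 240.5 ± 17.6 (SD, n = 4) and 313 ± 13.5 CPM (SD, n = 3), a 1.30-fold difference with a 95% interval of 1.16 to 1.46 (log2 fold change 0.38, SE 0.078, edgeR FDR 0.0043). Ighm was the member with the most counts and the smallest interval.

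Set against T-cell transcripts of the same library, Ighm counts per Cd3e count were 2.05 to 2.33 in HCME-sEV and 2.09 to 2.36 with LME-sEVs, ranges that overlap. Cd3e, a chain of the CD3 complex, itself rose (log2 fold change 0.36, SE 0.083, edgeR FDR 0.0106). Per Cd8a count, Ighm was at 0.639 to 0.725 and 0.733 to 0.772, with no overlap. In these bulk samples, more cells of a type and more RNA per cell cannot be told apart, nor can RNA of the cells and RNA of the added sEVs.

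Igkc, the constant region of the κ light chain that pairs with the heavy chain (chromosome 6, 70726435 to 70726966, plus strand), was far less abundant. It had 20, 10, 14 and 29 counts with HCME-sEVs and 31, 49 and 46 with LME-sEVs, or 4.80, 2.53, 3.72 and 6.73 against 8.31, 11.0 and 8.89 CPM. The lowest LME-sEV library lay above the highest HCME-sEV library. The fitted difference was 2.09-fold (log2 fold change 1.06, SE 0.267, 95% interval 0.51 to 1.62, edgeR FDR 0.0158). The call was lost without HCME-sEV library 2 (0.87, FDR 0.0549), LME-sEV library 2 (0.94, FDR 0.110) or LME-sEV library 3 (1.11, FDR 0.0550).

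The ratio of heavy to light chain counts varied widely between libraries, on 10 to 49 Igkc counts. There were 36.0 to 94.3 Ighm counts per Igkc count with HCME-sEVs and 28.9 to 36.4 with LME-sEVs, ranges that overlap. Over the variable segments, which lie upstream of the constant 3′ end that this assay counts, there were few counts. The 183 Ighv segments held 6 counts in all (2, 1, 2 and 1 with HCME-sEVs and 0 in each LME-sEV library), the 160 Igkv segments held 28 and the 3 Iglv segments held 0. Igkv20-101-2 held 14 of the 28 Igkv counts, 9 of them in LME-sEV library 1.

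The genes of the receptor's signalling pair were low. Cd79b (chromosome 11, 106311341 to 106314762, minus strand) had 13, 22, 7 and 14 counts with HCME-sEVs and 13, 20 and 19 with LME-sEVs. Its groups overlapped, at 3.45 ± 1.54 (SD, n = 4) and 3.88 ± 0.53 CPM (SD, n = 3), with a log2 fold change of 0.17 (SE 0.343, 95% interval -0.55 to 0.88, edgeR FDR 0.828). Without HCME-sEV library 3 the sign turned (-0.023).

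Cd79a (chromosome 7, 24897381 to 24902197, plus strand), whose product pairs with that of Cd79b, had 2 counts in HCME-sEV library 1 and 0 in each of the other 6 libraries. Both groups were at or under the limit of 3 counts, so no fold is given. An exact two-sided permutation test of its CPM over the 35 possible assignments of the group labels gave p = 1, where the smallest p this design allows is 0.0286.

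Ms4a1 (chromosome 19, 11249675 to 11266241, minus strand) had 5, 7, 4 and 6 counts with HCME-sEVs and 1, 7 and 6 with LME-sEVs. The groups overlapped, with LME-sEV library 1 below the others. The log2 fold change was -0.38 (SE 0.537, 95% interval -1.50 to 0.74, edgeR FDR 0.742), an interval that does not exclude a difference in either direction at this depth. Without LME-sEV library 1 the value was 5.85e-05.

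The B-cell markers listed beside the members were all far below Ighm, at unequal levels. Of the 11, 5 passed the filter on low counts, Cr2 with 28 to 56 counts a library, Pou2af1 with 20 to 31, Bank1 with 12 to 25, Ebf1 with 12 to 23 and Vpreb3 with 0 to 18. The log2 fold changes of these 5 were all positive, at 0.26, 0.05, 0.63, 0.14 and 2.22 in that order. Vpreb3 alone passed (edgeR FDR 0.0387), and it reached the filter only through its LME-sEV libraries. Bank1 did not pass (edgeR FDR 0.192), although each LME-sEV library was above every HCME-sEV library. Pax5, the factor that maintains B-cell identity, had 2, 2, 4 and 6 counts in the HCME-sEV group against 1, 1 and 1 in the LME-sEV group, with every LME-sEV library lower in CPM (exact two-sided permutation p = 0.0857, adjusted over the 2 genes tested in this way 0.171). Cd22, Blk and Fcer2a reached at most 3, 2 and 1 counts in any library, and Spib 4. Like Pax5, the genes Spib, Blk and Fcer2a had a lower mean CPM with LME-sEVs, and Cd22 had a higher one. All of these were below the filter, so the shared positive sign covers the tested markers only. The transcripts are referred to by gene name below, since the cells they came from were not tested. Of the 9, Ighm alone had a mean level between those of Cd3e and Cd8a.

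**Figure D2:**
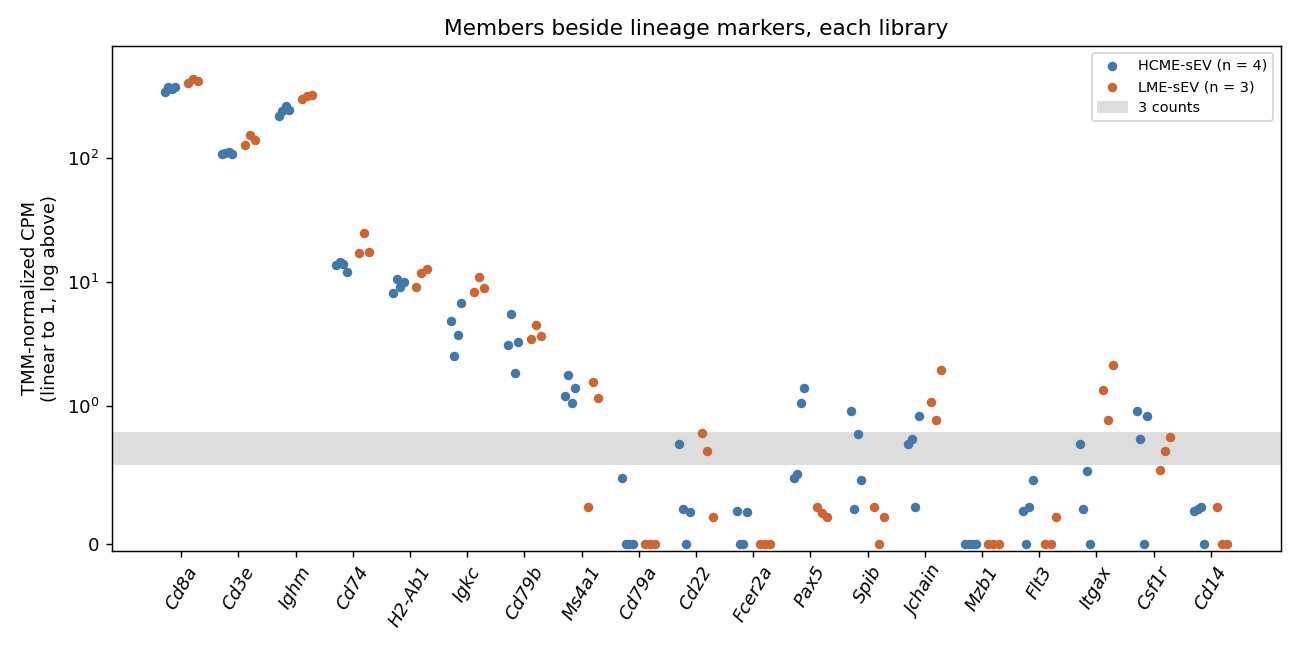
TMM-normalized CPM (linear up to 1, logarithmic above) of members and lineage markers in each HCME-sEV (blue, n = 4) and LME-sEV (orange, n = 3) library, with the range of 3 counts shaded. Ighm lies between Cd3e and Cd8a, Cd74 and H2-Ab1 near 10, and Cd79a, Fcer2a and Mzb1 at or near the shaded range or at 0.

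The labelled cell type was borne out by its own markers. The 5 CD8 T-cell markers (Cd8a, Cd8b1, Cd3d, Cd3e and Cd3g) summed to 1266 to 1377 CPM with HCME-sEVs and 1474 to 1686 with LME-sEVs, and 2 of the 5 rose (Cd3e and Cd3g). The 11 B-cell markers summed to 21.5 to 31.3 and 30.7 to 35.6 CPM, with 5 of 11 tested and 1 higher (Vpreb3). Over all tested genes 3.75% were higher. The 5 plasma-cell markers summed to 3.48 to 5.31 and 3.75 to 6.57 CPM, with Mzb1 and Tnfrsf17 at 0 in every library. The part of these markers in the differences of Ighm and Igkc was not tested.

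Among the 4 class II members, Cd74 was the most abundant and the only one to pass the test. Cd74 (chromosome 18, 60803848 to 60812652, plus strand, with the microRNA gene Mir5107 within an exon) had 57, 57, 53 and 52 counts with HCME-sEVs and 64, 110 and 90 with LME-sEVs, or 13.7, 14.4, 14.1 and 12.1 against 17.2, 24.6 and 17.4 CPM. The 4 HCME-sEV libraries lay close together and all 3 LME-sEV libraries above them, with LME-sEV library 2 the highest. The log2 fold change was 0.54 (SE 0.162, 95% interval 0.21 to 0.88, edgeR FDR 0.0400).

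The call for Cd74 was the least stable of the 3. It held in 6 of 13 alternative settings, and the 7 in which it was lost included DESeq2's Wald test (FDR 0.0900) and leaving out any of HCME-sEV libraries 1, 2 and 4 or LME-sEV libraries 2 and 3. Without LME-sEV library 2 the log2 fold change was 0.35 (edgeR FDR 0.286). Its sign was positive in all 13.

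H2-Aa, the α chain of I-A (chromosome 17, 34282744 to 34287823, minus strand), had 21, 28, 14 and 29 counts with HCME-sEVs and 24, 40 and 37 with LME-sEVs. The groups overlapped, at 5.64 ± 1.56 (SD, n = 4) and 7.51 ± 1.30 CPM (SD, n = 3), with a log2 fold change of 0.41 (95% interval -0.11 to 0.93, edgeR FDR 0.355). H2-Ab1, the β chain of I-A (chromosome 17, 34257689 to 34269419, plus strand), had 34, 42, 34 and 43 counts against 34, 53 and 66. LME-sEV library 1 lay within the HCME-sEV range and the other two above it, with a log2 fold change of 0.27 (95% interval -0.13 to 0.66, edgeR FDR 0.438).

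H2-Eb1, the β chain of I-E (chromosome 17, 34305867 to 34316674, plus strand), had 12, 11, 17 and 10 counts with HCME-sEVs and 24, 21 and 27 with LME-sEVs. The groups did not overlap, with LME-sEV library 1 the highest at 6.43 CPM and HCME-sEV library 3 the nearest below at 4.52 CPM. The means were 3.12 ± 0.96 (SD, n = 4) and 5.45 ± 0.89 CPM (SD, n = 3). The log2 fold change of 0.80 (SE 0.303, 95% interval 0.17 to 1.43) did not pass the test over all genes (edgeR FDR 0.110), and passed only without HCME-sEV library 3 (1.02, FDR 0.0469). H2-Ea, the α chain that pairs with it in strains that express I-E, had 0 counts in every library.

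The 4 class II members summed to 29.8, 34.9, 31.3 and 31.1 CPM with HCME-sEVs and 39.1, 50.2 and 42.5 with LME-sEVs, a ratio of means of 1.38. The 4 receptor and co-receptor members other than Ighm summed to 9.61, 9.85, 6.64 and 11.4 CPM against 12.1, 17.0 and 13.7. Neither sum overlapped between groups, and LME-sEV library 2 was the highest in both. The proportions within the complex overlapped, with 0.634 to 0.851 Cd74 counts per count of the 3 chains with HCME-sEVs and 0.692 to 0.965 with LME-sEVs, and 1.48 to 2.43 against 1.33 to 1.78 H2-Ab1 counts per H2-Aa count.

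Markers of other class II-bearing cells were low. Of those summed here only Zbtb46 and Cd68 were tested, and neither passed (edgeR FDR 0.191 and 0.173). The 7 dendritic cell markers summed to 7.19 to 9.61 CPM in HCME-sEV and 9.65 to 12.6 CPM with LME-sEVs, mostly from Zbtb46, whose own groups overlapped. 5 of the 7 had no more than 3 counts in any library, and Cd209a was at 0 in all. Itgax, below the filter, had 3, 1, 2 and 0 counts with HCME-sEVs and 5, 4 and 11 with LME-sEVs. In CPM each LME-sEV library of Itgax was above every HCME-sEV library, but in a fit without the filter it did not pass (edgeR FDR 0.125). Flt3 and Clec9a had a lower mean CPM with LME-sEVs, and Xcr1 and Siglech a higher one, on at most 2 counts in any library. The 9 monocyte or macrophage markers summed to 2.27 to 5.04 and 4.82 to 6.05 CPM, ranges that overlap, with C1qa, C1qc and Fcgr1 at 0 in every library. The part of these markers in the class II values was not tested.

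**Figure D3:**
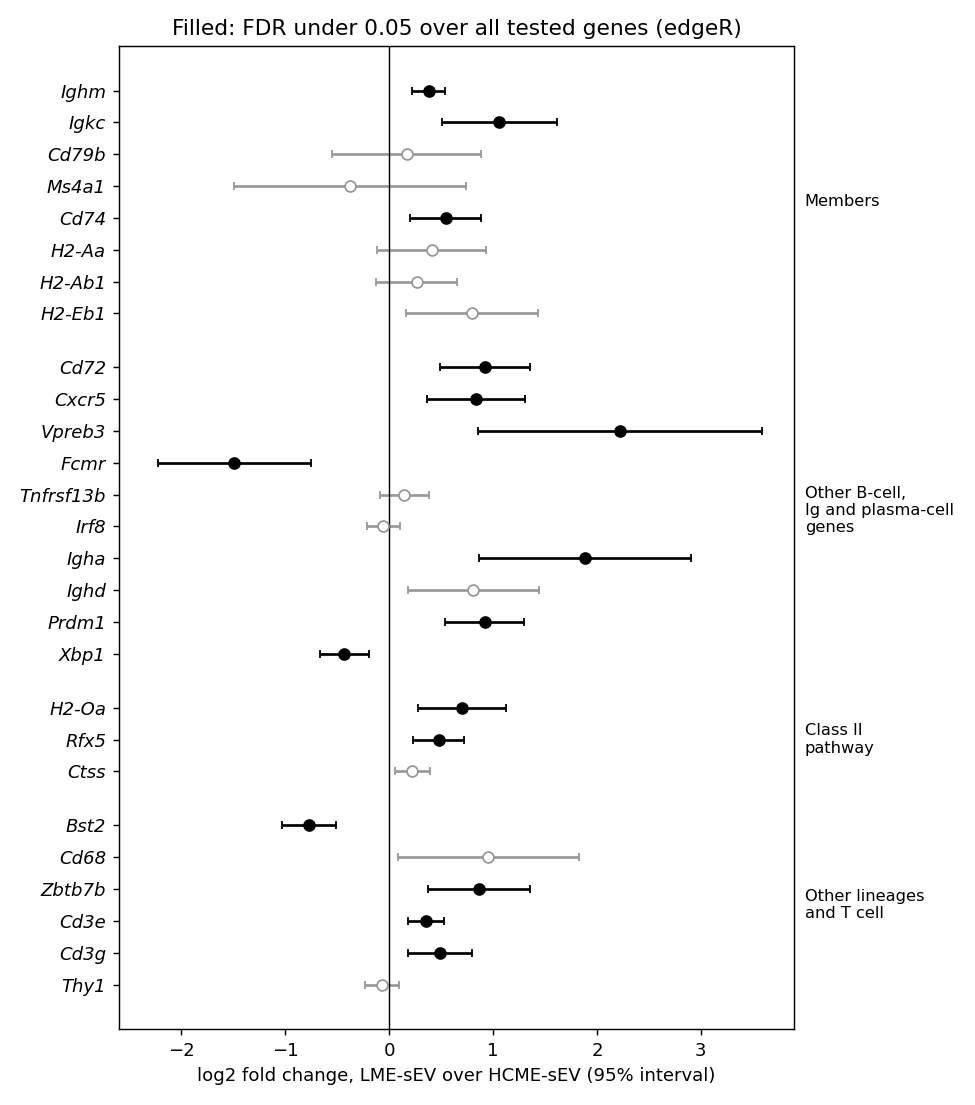
Log2 fold change (LME-sEV over HCME-sEV) with its 95% interval for the 8 tested members and for named genes of the B-cell, plasma-cell, class II, other-lineage and T-cell lists, filled where edgeR's FDR was under 0.05. Ighm, Igkc and Cd74 are filled among the members, and Fcmr, Xbp1 and Bst2 lie on the negative side.

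Of 18 other class II pathway genes listed, 17 were found by symbol and 14 were tested. Of these 14, 2 rose (H2-Oa and Rfx5) and 12 did not pass, where 3.75% of all tested genes rose. The number that fell was 0, also at an unadjusted p under 0.05 and by DESeq2. The median log2 fold change of the 14 was 0.0065. Rfx5, a subunit of the RFX complex, rose from a range of 23.2 to 27.4 CPM with HCME-sEVs to one of 34.2 to 39.7 with LME-sEVs, without overlap (log2 fold change 0.48, SE 0.118, edgeR FDR 0.0143), a call lost without LME-sEV library 2 (FDR 0.109). H2-Oa, a chain of the DO molecule that restrains peptide loading, had a log2 fold change of 0.70 (SE 0.204, edgeR FDR 0.0354), although the groups overlapped at 7.89 to 12.5 and 10.7 to 19.5 CPM. Its call was lost in DESeq2's Wald test and without any of HCME-sEV libraries 1, 2 and 4 or LME-sEV libraries 2 and 3.

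Ciita, the transactivator of class II genes, was near the filter with 4, 4, 10 and 5 counts against 4, 6 and 7 (log2 fold change -0.17, edgeR FDR 0.889). H2-DMa, a chain of the DM molecule that exchanges peptides, had a log2 fold change of -0.01 (edgeR FDR 0.971). Ctss, the protease that degrades the invariant chain and the most abundant gene of this list, had a log2 fold change of 0.23 (edgeR FDR 0.0888), with 129 to 148 CPM against 155 to 171 CPM. H2-Ea was not detected, and H2-Eb2 and Lgmn were below the filter.

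Among 21 other B-cell surface and signalling genes, 11 were tested, 3 rose and 1 fell, where 3.75% of all tested genes rose and 5.21% fell. Cd72, an inhibitory receptor of B cells, rose from a range of 5.28 to 8.12 CPM to one of 9.65 to 14.9 CPM (log2 fold change 0.92, SE 0.209, edgeR FDR 0.00883), a call lost without LME-sEV library 2 or 3. Cxcr5, the chemokine receptor that guides cells to follicles and is also found on subsets of T cells, rose by 0.84 (SE 0.228, edgeR FDR 0.0249). Without HCME-sEV library 1 or 4 or LME-sEV library 2 or 3, and in DESeq2's Wald test, that call was lost.

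Vpreb3, a protein of the immature receptor complex, had 1, 5, 2 and 0 counts against 3, 12 and 18, groups that overlap (log2 fold change 2.22, SE 0.657, edgeR FDR 0.0387). The call was lost without HCME-sEV library 1 or 4. Without LME-sEV library 2 or 3, and under the alternative filter on low counts, Vpreb3 fell below the filter and was not tested. It was called in 6 of the 9 alternative settings that gave it a result. Fcmr, the Fc receptor for IgM, fell from a range of 5.11 to 8.84 CPM to one of 1.16 to 4.02 CPM without overlap (log2 fold change -1.49, SE 0.354, edgeR FDR 0.0119, lost without LME-sEV library 2 or 3). Tnfrsf13b, the most abundant of this list, had a log2 fold change of 0.15 (edgeR FDR 0.485).

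Of the 8 B-cell transcription factors, 4 were tested and 0 passed in either direction by edgeR, with 0 also at an unadjusted p under 0.05 and 0 by DESeq2. Over all tested genes 8.96% passed by edgeR in either direction. Their most abundant member, Irf8, which T cells also express when activated, had a log2 fold change of -0.06 (edgeR FDR 0.728).

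Among 10 other immunoglobulin constant genes, 2 were tested and 1 rose, where 3.75% of all tested genes rose. Igha, the α heavy chain, had 1, 6, 4 and 2 counts against 9, 17 and 15 (log2 fold change 1.89, SE 0.491, edgeR FDR 0.0198), lost without HCME-sEV library 1 or 4 or LME-sEV library 2 or 3. Igha reached the filter on low counts only through its LME-sEV libraries. Among the genes of this list below the filter, Ighg2b, Iglc1 and Iglc3 had a lower mean CPM with LME-sEVs. Ighg1, Ighg3 and Iglc2 had a higher one, and Ighg2c and Ighe had no counts. The share that rose therefore covers the tested genes only. Ighd, the δ chain that mature B cells co-express with µ, had 11, 17, 16 and 9 counts against 25, 23 and 29. Its groups did not overlap, and the log2 fold change of 0.81 (SE 0.302) missed the threshold (edgeR FDR 0.105). There were 55.5 to 116 Ighm counts per Ighd count in HCME-sEV and 44.4 to 61.7 with LME-sEVs.

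Of 7 plasma-cell genes 3 were tested, with 1 higher and 1 lower, where 3.75% of all tested genes were higher and 5.21% lower. Prdm1, a factor of plasma cells and of effector T cells, rose from a range of 7.45 to 12.1 CPM to one of 16.4 to 21.1 CPM (log2 fold change 0.92, SE 0.181, edgeR FDR 0.00340) and passed in all 13 alternative settings. Xbp1, a factor of the secretory response in plasma cells and others, fell by 0.43 on the log2 scale (SE 0.111, edgeR FDR 0.0194), a call lost without HCME-sEV library 2 or LME-sEV library 1 or 2.

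In the lists of other lineages, 3 of 10 dendritic cell genes were tested and 1 fell, Bst2, an interferon-induced surface protein (log2 fold change -0.77, SE 0.125, edgeR FDR 8.01e-04). Beside this list and those that follow, 3.75% of all tested genes rose and 5.21% fell. Of 10 monocyte and macrophage genes only Cd68 was tested (0.95, edgeR FDR 0.173). Of 8 CD8 T-cell genes 2 rose, Cd3e and Cd3g (0.49, SE 0.148, edgeR FDR 0.0405, lost in DESeq2's Wald test and without HCME-sEV library 1 or 4 or LME-sEV library 2 or 3), while the most abundant, Thy1, had a log2 fold change of -0.07 (edgeR FDR 0.673). The call for Cd3e was lost without LME-sEV library 2 or 3. Zbtb7b, a factor of CD4+ T cells, rose by 0.87 (SE 0.235, edgeR FDR 0.0241), and that call was lost without HCME-sEV library 1 or 4 or any 1 LME-sEV library. The 3 CD4 T-cell markers, mostly Zbtb7b, summed to 6.01 to 14.4 CPM with HCME-sEVs and 15.2 to 17.2 CPM with LME-sEVs. Cd4 had at most 3 counts in any library and Foxp3 at most 1.

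Exons of Cd72, Cxcr5, H2-Oa, Rfx5, Cd3e, Zbtb7b and Pax5 overlap exons of another gene on the opposite strand, and the strand setting of the counting was not stated. Apart from Mir5107 in Cd74, the 9 members overlap no other gene's exons and have no near-identical 3′ end.

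**Figure D4:**
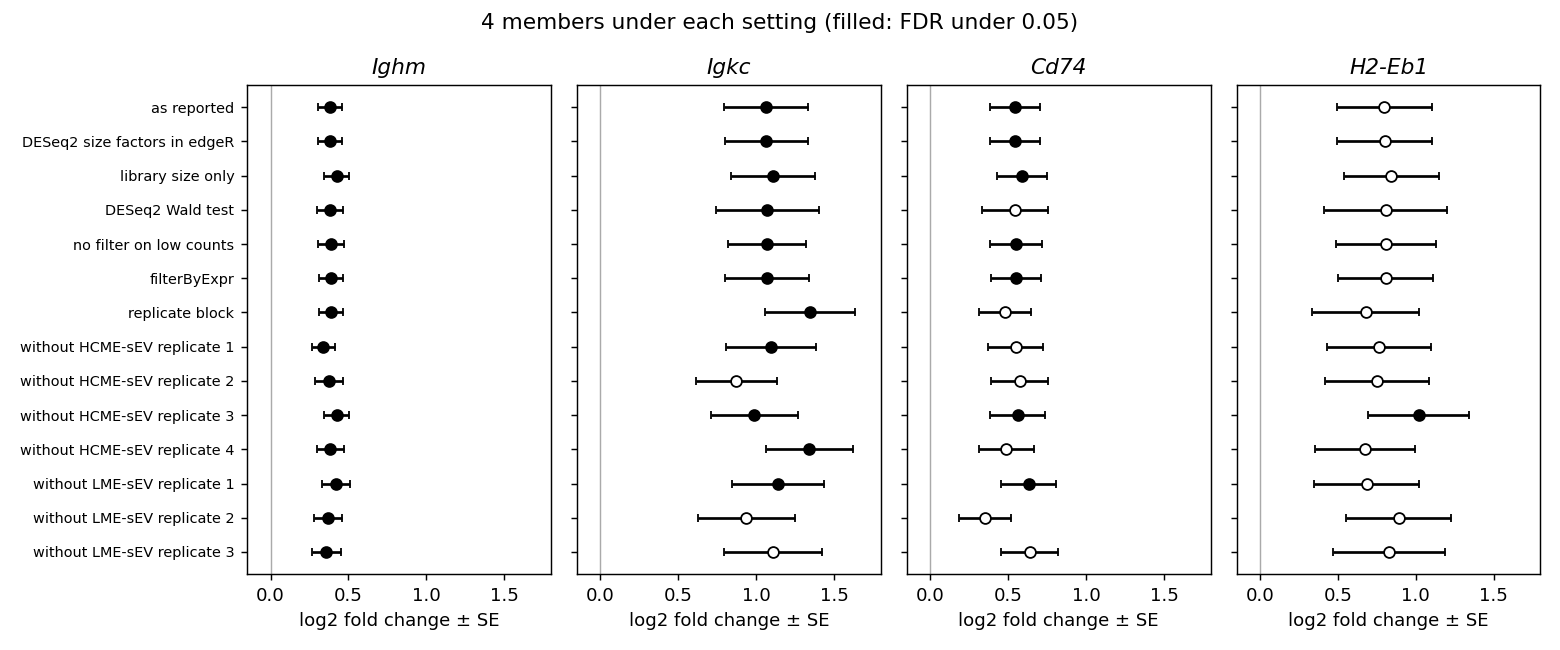
Log2 fold change ± SE of Ighm, Igkc, Cd74 and H2-Eb1 as reported and in each of 13 alternative settings, filled where the FDR was under 0.05. Ighm is filled in all, Igkc in 10 and Cd74 in 6 of the 13 alternatives, and H2-Eb1 in 1.

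The genes whose profile over the 7 libraries was most like that of the members were found among 9690 tested genes averaging 20 or more counts a library, by the root-mean-square distance of library-centred log2 CPM. For the sum of the 4 class II members these were Hscb (0.0480), Mrtfa (0.0514), Plgrkt (0.0519), Cep85l (0.0631) and Dhcr7 (0.0700, whose 3′ end is near-identical to that of Dhtkd1). For the sum of the 5 receptor and co-receptor members, mostly Ighm, they were Ptpn22 (0.0264), Serinc3 (0.0268), Rmnd5a (0.0324), Ccni (0.0344) and Gm2a (0.0418). The distance describes likeness over these libraries and carries no test.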

How the data were processed

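Per the labels, RNA of CD8+ T cells was made into QuantSeq 3′ FWD libraries with unique molecular identifiers. The authors deposited 1 table of raw counts per gene for the 7 libraries, made on GRCm38 (mm10). The submitters' processing notes name cutadapt 2.10, STAR 2.5.3a, UMI-tools 1.0.0 and featureCounts of Subread 2.0.0, and the annotation release and strand setting are not given in the sources used here. Libraries were grouped by their labels. Genes averaging 5 or more counts over the libraries entered edgeR 4.0.16 (R 4.3.3) and its quasi-likelihood test with TMM factors and no covariate, and p-values were adjusted by Benjamini-Hochberg over 12623 genes. Genes under the filter (Cd79a and Pax5) had an exact permutation test. The script was tested on simulated data. Intervals and limits cover these libraries, and the limit of 3 counts covers counting error only. Alternatives were DESeq2 1.42.0, other scalings and filters, a replicate block and leaving out each library.

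The members and lists were chosen with earlier results of these data known. Named were all members, Pax5, in each list the genes at FDR under 0.05 and the most abundant tested gene, and the 5 genes most like each member sum. Genes outside this rule that are named (Ciita, H2-DMa, H2-Ea and other lineage markers among them) were chosen after their values were seen. Gene positions came from GENCODE vM21. Near-identical ends were sought with BLAST 2.17.0 over the last 300 bases, at 95% identity over at least 200 bases. 1 further gene that the rule fixed by name is not reported here.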

Additional observations from a re-analysis of the deposited data

Results flagged for a closer look

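Cd79a had counts in 1 library of its group. HCME-sEV library 1 had 0.480 CPM, from 2 counts, and the other 3 HCME-sEV libraries had 0, so the gap to the nearest library was 1 as a share of the group's range, above Dixon's 95% critical value for 4 samples. Among the 40 results examined in this way this was the only one, where chance gives about 2. With the other 3 libraries at 0 that share is 1 whatever the remaining value, and 2 counts are under the limit of 3 counts that a count of 0 allows, so no library is called apart from this value.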

How the results depend on the processing

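Ighm kept its direction and its call in all 13 alternatives, with log2 fold changes of 0.34 to 0.43. The number of members called was 3 as reported, 2 in DESeq2's Wald test (Cd74 lost), and 1 to 4 on leaving out 1 library, with 1 without HCME-sEV library 2, LME-sEV library 2 or LME-sEV library 3. Calls over all genes numbered 1131 and, on leaving out 1 library, ranged from 391 (without LME-sEV library 2) to 1305 (without HCME-sEV library 3), 458 without LME-sEV library 3 and 723 without HCME-sEV library 2. With a log2 fold change beyond 1 there were 162, 97 by DESeq2's Wald test and from 83 (without LME-sEV library 2; 90 without library 3) to 184 on leaving out 1 library. Of the other B-cell and class II pathway genes 9 were called, 5 by DESeq2's Wald test (which gave Vpreb3 and Igha no adjusted p) and 1 to 9 on leaving out 1 library. Fewer libraries in a fit leave fewer degrees of freedom. The sign turned for Cd79b without HCME-sEV library 3 (leave-one-out range -0.023 to 0.48), Ms4a1 without LME-sEV library 1 (-0.48 to 5.85e-05) and Irf8 without LME-sEV library 3 (-0.12 to 8.94e-04), none of them called. Scaling by library size alone changed the split of calls to 614 higher and 465 lower from 473 and 658, with 56.9% higher in place of 41.8%, and called the same 3 members. Ctss and Cep85l passed only there (FDR 0.0480 and 0.0408).

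Deviations of libraries with the same number correlated at 0.0721, 0.155 and 0.0268, and not every library correlated best with its own number, so the numbers were not taken as pairs. With the replicate block there were 1454 calls over all genes, Cd74 (0.48, FDR 0.0606) and Vpreb3 (1.73, FDR 0.0633) were no longer called, and Ighm and Igkc were. HCME-sEV library 4 has no LME-sEV library of the same number, so in that fit it added nothing to the difference between groups. Depth limits Cd79a, Ms4a1 and Pax5, which had at most 7 counts in any library.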
